A study of Arabidopsis thaliana with 5 samples.

Results

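The WRKY transcription factors of Arabidopsis thaliana were examined for peaks of TREE1, a protein that the series title places with EIN3 in ethylene-dependent repression of shoot growth. Members were the nuclear protein-coding genes whose symbol in the gene table is WRKY followed by a number, which gave 67 of 27444 genes. A further 5 genes carry a WRKY number only as a synonym and were left out of the family counts. Chromatin immunoprecipitation sequencing (ChIP-seq), which maps where a protein sits on the genome, was done with an anti-GFP antibody on shoots of 3-day-old dark-grown seedlings. The line is titled TREE1p::TREE1-GFP, also written pTREE1:TREE-GFP in the labels, and in it the TREE1 promoter drives a tagged protein. Seedlings received air or 10 ppm ethylene, a gaseous plant hormone, for 4 h. All libraries came from this 1 line, and no ChIP library of an untagged line was used here. Peaks came from 1 library for air and 2 replicate libraries for ethylene. The authors called each against an input of its own treatment, so both ethylene lists share an input. The run and input names in the headers of all 3 peak lists carry the name DAZ3L and not TREE1, and the run name of the air list holds rep2. How DAZ3L relates to TREE1 is not given in the sources used here, and the sample labels were followed.

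WRKY proteins are plant transcription factors that share a DNA-binding domain and recognise W-box elements in promoters. They are best known for the control of defence against pathogens, salicylic acid responses, leaf senescence and responses to heat, drought and phosphate shortage. The family is divided by protein structure into group I, whose members typically but not always carry a pair of WRKY domains, groups IIa to IIe, and group III.

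A gene was called bound in a library when a peak summit lay up to 1000 bp beyond one of its ends, or up to 200 bp inside that end. A call says that a summit is near the gene and does not say that the gene is controlled by it. The gene table gave no strand, so the start and the end of a gene could not be told apart, and ends are named by coordinate. The libraries kept 5884897 to 9459860 tags after duplicate removal and had 8602 to 9958 peaks. The fold enrichment of a peak over its local background is the authors' value and ranks peaks within a list only. Median folds over all peaks were 3.11 in air, 3.99 in ethylene replicate 1 and 3.39 in ethylene replicate 2. Ethylene replicate 1 was the shallowest. With 1 air library, no difference between treatments has a replicate check, and no test was made.

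The first comparison asked how often TREE1-GFP was found at WRKY genes in each library. In air 20 of the 67 members were bound (29.9%, Wilson 95% interval 20.2 to 41.7%), against 33.9% of all nuclear coding genes. Ethylene replicate 1 bound 22 members (32.8%, 22.8 to 44.7%), against 36.3% of all coding genes. Ethylene replicate 2 bound 21 members (31.3%, 21.5 to 43.2%), against 36.4%. The share of all coding genes lay inside the interval of the family in each library. This depended on the window. With 500 bp beyond the gene end the members bound in air fell to 10 (14.9%, 8.31 to 25.3%), against 27.9% of all coding genes. Each ethylene replicate then held 12 (17.9%, 10.6 to 28.7%), against 30.1 and 30.04%, so the share of all coding genes lay above the interval in all 3 libraries. With 2000 bp, with any overlap of a peak, with the whole gene and at a higher score minimum it lay inside. By the same symbol rule, 26, 30 and 28 of 79 NAC genes and 28, 23 and 34 of 115 MYB genes, which are other plant transcription factor families, were bound in air, ethylene replicate 1 and ethylene replicate 2. The MYB share in ethylene replicate 1 was 20% (13.7 to 28.2%). The differences between families were not tested.

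**Figure D1:**
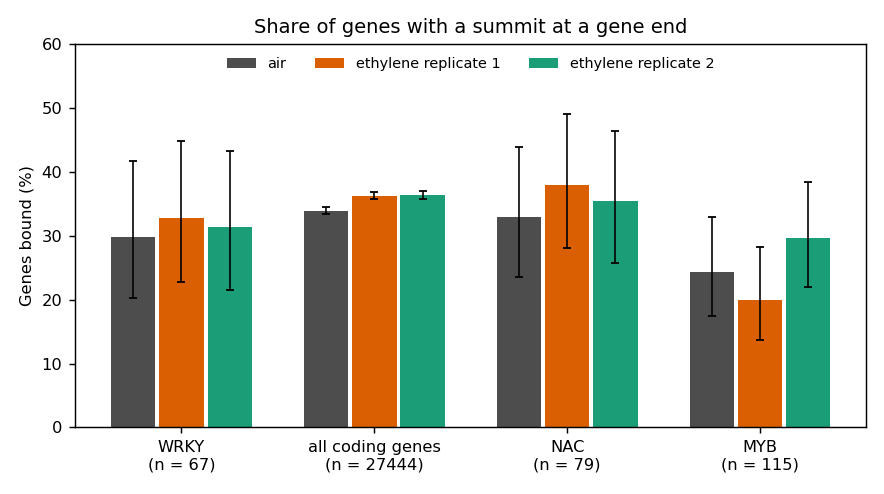
Share of genes bound (percent, vertical axis) in each library, for the WRKY family, all nuclear coding genes and the NAC and MYB families. Bars are shares and error bars are Wilson 95% intervals, which cover counting error only; the WRKY bars stand at 29.9, 32.8 and 31.3%, and the bars of all coding genes stand at 33.9, 36.3 and 36.4%.

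Across the libraries, 31 members were bound in at least 1 (46.3%, against 50.2% of all coding genes) and 36 in none (53.7%, against 49.8%). A set of 10 members was bound in all 3 libraries (14.9%, 8.31 to 25.3%), against 21.2% of all coding genes. Both ethylene libraries and not air bound 7 members (10.4%, 5.15 to 20.03%), against 5.94%. Air and neither ethylene library bound 5 (7.46%, 3.23 to 16.3%), against 4.63%. The intervals of the last 2 shares held the genome's share, and the upper bound of the first lay above 21.2%. The count for all 3 libraries depended on the window: with 2000 bp beyond the gene end it was 19 members, against 28.6% of all coding genes, and with any overlap of a peak it was 20, against 24.9%. With 500 bp it was 4 (5.97%, 2.35 to 14.4%), against 16.3%, which lay above the interval. With lists cut to equal length by score the ethylene class again held 7 members, against 4.74% of all coding genes, just below its interval.

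The 10 members bound in all libraries were WRKY8, WRKY13, WRKY17, WRKY25, WRKY27, WRKY28, WRKY36, WRKY43, WRKY47 and WRKY51. For all 10, 1 merged peak region held a summit of each library, and among all coding genes bound in all libraries the same held for 92.6%. Of the 10 members, 5 belong to group IIc, the largest group, which holds 17 of the 67 members. The class held 14.9% of the family and 21.2% of all coding genes, and the count of the group was not tested.

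WRKY28, a gene linked to salicylic acid synthesis, had the highest fold of the family in each library, while WRKY13 had the highest score and tag count. The WRKY28 peak on chromosome 4 ran from 10059807 to 10060888 in air (TAIR10). Its folds were 5.14 in air, 7.61 in ethylene replicate 1 and 6.74 in ethylene replicate 2. These ranked 153, 137 and 89 in their lists. The summits lay 947, 932 and 938 bp beyond the lower-coordinate end of the gene, so all libraries placed them within 15 bp of each other and near the outer edge of the window.

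WRKY8, known for roles in salt stress and defence, had folds of 4.56, 6.28 and 6.56 in air, ethylene replicate 1 and ethylene replicate 2, on chromosome 5 from 18804423 to 18804938 in air. WRKY13, which promotes lignin formation in stems, had folds of 3.84, 6.49 and 6.48 in the same order, on chromosome 4 from 18331690 to 18332663 in air. Its ranks were 1193 in air, 292 in ethylene replicate 1 and 115 in ethylene replicate 2. The scores of WRKY13 were 320, 419 and 435, where the score is 10 times the negative log10 of the p-value from the peak caller and the cutoff is 50. The peak of WRKY8 was among the first 355 of every list by fold.

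WRKY17, which with WRKY11 limits basal resistance to bacteria, had summits inside its higher-coordinate end, 119, 111 and 104 bp from it. The folds there were 3.76 in air, 4.56 in ethylene replicate 1 and 5.45 in ethylene replicate 2, at ranks 1354, 2245 and 315. The air peak had a score of 62.2. At a minimum score of 100, WRKY17 therefore stayed in both ethylene lists and left the air list.

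WRKY36, whose protein represses the light-signalling gene HY5 in seedlings, had folds of 3.90 in air, 4.67 in ethylene replicate 1 and 4.79 in ethylene replicate 2, on chromosome 1 from 26275935 to 26276690 in air. The same summits called its neighbour AT1G69800, so the peak cannot be assigned to either gene alone. WRKY51, which acts with WRKY50 in the repression of jasmonate signalling, had folds of 4.43, 4.01 and 3.48 in the same order, at ranks 433, 4466 and 4356, and scores of 118, 101.5 and 144. Its fold was thus in the top 5.03% of the air list and near the middle of both ethylene lists, while its score was not highest in air.

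WRKY47, WRKY43, WRKY27 and WRKY25 completed this class. WRKY47 had peaks beyond both ends in air and in ethylene replicate 1, and beyond its lower-coordinate end alone in ethylene replicate 2, where the fold was 3.02. The summits beyond its higher-coordinate end also called AT4G01730. WRKY43 had folds of 3.23, 4.02 and 3.30, from summits that also called KPHMT1. WRKY27, a gene linked to symptoms of bacterial wilt, had folds of 2.68, 3.99 and 3.48, from summits that also called AT5G52840. WRKY25, known for heat and salt tolerance, had folds of 3.04, 3.73 and 3.34, from summits that also called U2B''. None of these 4 was among the top 10% of a list by fold. The score of WRKY27 in ethylene replicate 1 was 201, above those of WRKY8, WRKY17, WRKY36 and WRKY51 in that library.

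**Figure D2:**
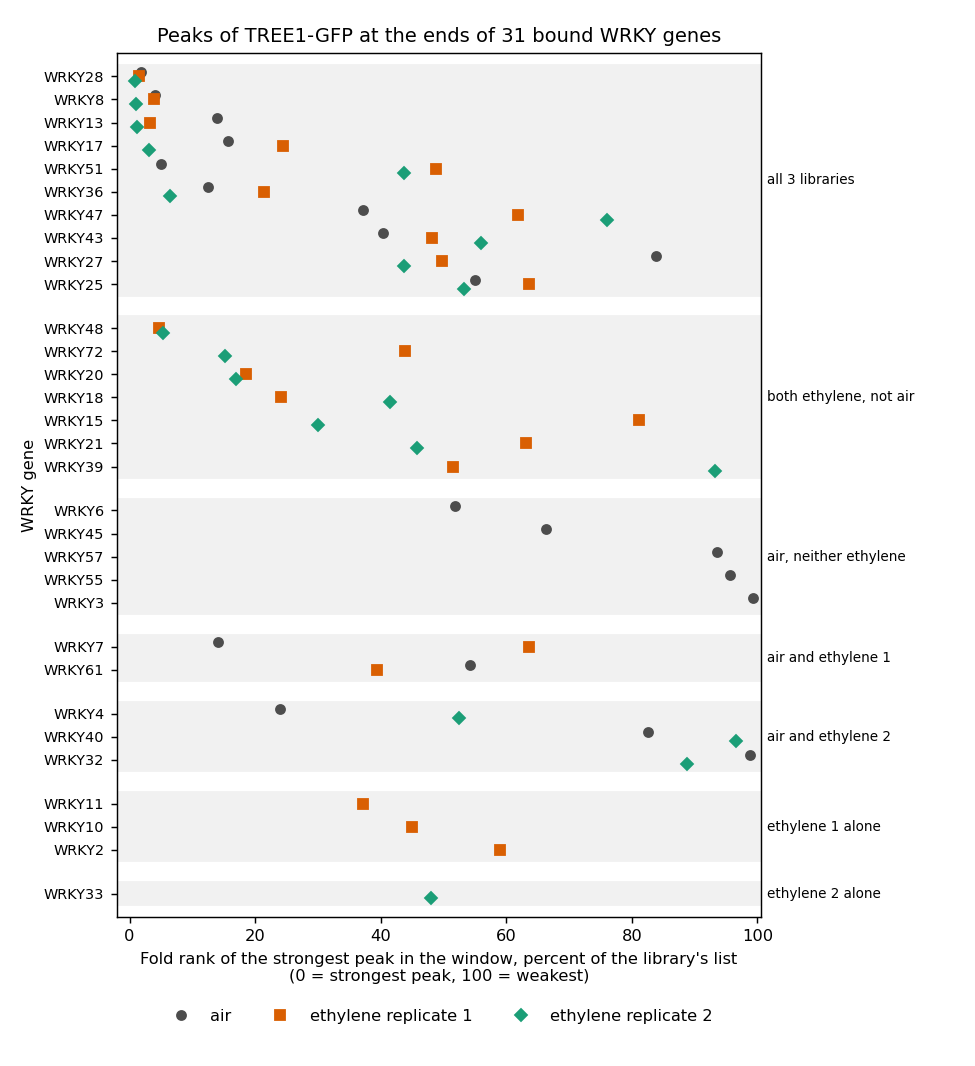
Rank of the strongest peak in the window of each of the 31 bound WRKY genes, as a percent of the library's list (horizontal axis, 0 is the highest fold), grouped by the libraries in which the gene was bound. WRKY28 and WRKY8 lie near 0 in all 3 libraries, WRKY48 leads the genes bound in both ethylene libraries and not air, and the 5 genes bound in air and neither ethylene library lie between 51.8 and 99.3% of the air list.

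The next comparison asked which members differed between air and both ethylene libraries. The 7 bound in both ethylene libraries and not air were WRKY15, WRKY18, WRKY20, WRKY21, WRKY39, WRKY48 and WRKY72. No air peak overlapped the called ethylene peaks of any of the 7. An air peak did overlap the window of WRKY15 and of WRKY20, beyond the lower-coordinate end, with summits 1084 and 1100 bp away from the gene.

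WRKY48, a stress-induced gene that limits basal defence, had the highest fold of the 7 in both libraries. Its fold was 6.05 in ethylene replicate 1, on chromosome 5 from 20090270 to 20090707, and 4.92 in ethylene replicate 2, from 20090303 to 20090919. The ranks were 430 and 535, within the top 5.37% of each list. The scores were 124 and 190, and in ethylene replicate 1 WRKY18, WRKY20 and WRKY21 had higher ones. The summits lay 152 and 169 bp beyond the lower-coordinate end. The nearest air summit was 4987 bp from the summit of ethylene replicate 1. WRKY48 stayed in this class under all 7 other ways of calling that were tried. Among these, the deposited summit list holds the same positions as the peak tables and could not change a class.

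WRKY18, one of the pathogen-induced group IIa genes that act with WRKY40 and WRKY60, had its ethylene summits 1 bp apart, 625 and 626 bp beyond the lower-coordinate end. The folds were 4.57 and 3.52, on chromosome 4 from 15381899 to 15382749 in ethylene replicate 1, and the scores were 199 and 132. The nearest air summit was 8431 bp away. WRKY40 itself was bound in air and ethylene replicate 2, with folds of 2.70 and 2.59 and scores of 51.9 and 50.6, both just above the cutoff of 50. The summit nearest to WRKY60 in any library lay 30455 bp from the gene.

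WRKY20, a group I gene, had folds of 4.79 and 4.08, with summits 94 and 137 bp beyond its higher-coordinate end on chromosome 4, from 13441799 to 13442395 in ethylene replicate 1. At its other end all 3 libraries had a summit outside the window, 1100 bp away in air, 1313 bp in ethylene replicate 1 and 1071 bp in ethylene replicate 2. With a window of 2000 bp WRKY20 was therefore bound in all libraries, although the site at the higher-coordinate end was found with ethylene alone. WRKY72, a gene of basal defence, had folds of 4.10 and 4.15, with summits 384 and 387 bp beyond its higher-coordinate end, and the nearest air summit was 9971 bp from the first.

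Group IId, whose proteins bind calmodulin and which holds 7 of the 67 members, gave 3 of the 7 genes of this class. The class held 10.4% of the family and 5.94% of all coding genes, and the count of the group was not tested. WRKY21 had folds of 3.75 and 3.45, and its summits lay 991 and 1000 bp beyond the gene, at the very edge of the window. They also called AT2G30600, which was their nearest gene. WRKY15, a gene of the response to salt and oxidative stress, had a shared ethylene peak beyond its higher-coordinate end. This peak had folds of 3.42 and 3.49, with both summits inside AT2G23321, another coding gene. Ethylene replicate 2 alone added a peak of 3.72-fold, 105 bp beyond the lower-coordinate end. WRKY39, a gene of heat tolerance, was called by different regions, 681 bp beyond the gene at 3.96-fold in ethylene replicate 1, from a summit that also called CLPS3, and 304 bp beyond it at 2.70-fold in ethylene replicate 2. Its call in both ethylene libraries is thus not a shared site.

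The 5 members bound in air and neither ethylene library were WRKY3, WRKY6, WRKY45, WRKY55 and WRKY57, all with folds below the air list's median of 3.11. For WRKY3, WRKY6 and WRKY55, no ethylene peak overlapped the called air peak. WRKY55, a group III gene linked to leaf senescence, had a fold of 2.44 and a score of 51.7 on chromosome 2 from 16996097 to 16996673, and the nearest ethylene summit lay 13273 bp from that of air. The air summit also called CTEXP, which was its nearest gene. WRKY3, which with WRKY4 acts in resistance to necrotrophic fungi, had a fold of 2.21, rank 8546 of 8602.

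WRKY6, a regulator of senescence and of phosphate transport, had its air summit 191 bp inside the higher-coordinate end, at 3.08-fold, close to the inner edge of the window. Beyond the same end all 3 libraries had a summit just outside the window, 1093 bp away at 3.00-fold in air, 1114 bp at 4.73-fold in ethylene replicate 1 and 1141 bp at 4.48-fold in ethylene replicate 2. WRKY57, a gene of drought tolerance, had its air summit 989 bp beyond the lower-coordinate end, at 2.50-fold, where it also called PDCB4, its nearest gene. The ethylene summits of the same region lay 1010 and 1095 bp away, at 4.01-fold and 2.98-fold, so its class came from the edge of the window. WRKY45, which activates phosphate uptake, had an air summit 177 bp inside the lower-coordinate end at 2.90-fold, and ethylene replicate 1 had one of 3.58-fold 251 bp inside. The air summit also called AT3G01960 and AT3G01961. When a class further required that no peak of the missing library overlap the window, 5 of the 7 genes of the ethylene class remained, without WRKY15 and WRKY20, and 2 of the 5 of the air class, WRKY3 and WRKY55. The corresponding shares of all coding genes were 5.13 and 4.09%. At a minimum score of 100 the ethylene class held 3 members (4.48%, against 3.41% of all coding genes), WRKY17, WRKY18 and WRKY48, and the air class held WRKY47 alone (1.49%, against 3.06%).

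The remaining 9 bound members had a summit in a mix of libraries. WRKY7 and WRKY61 were bound in air and ethylene replicate 1 (2 members, against 4.1% of all coding genes), and WRKY4, WRKY32 and WRKY40 in air and ethylene replicate 2 (3 members, against 3.99%). WRKY2, WRKY10 and WRKY11 were bound in ethylene replicate 1 alone (3 members, against 5.08%), and WRKY33 in ethylene replicate 2 alone (1 member, against 5.28%). WRKY7, a group IId gene, also had a peak of ethylene replicate 2 over its called site, at 4.28-fold, with the summit 230 bp inside the gene and so just past the inner edge. WRKY11 had peaks overlapping its window in air, at 2.58-fold, and in ethylene replicate 2, at 3.47-fold and 2.93-fold. Their summits lay 951, 404 and 285 bp inside the gene, with scores of 93.9, 159.5 and 56.4. The called peak in ethylene replicate 1 had a score of 52.7, and WRKY11 was bound in all libraries with any overlap of a peak. WRKY32 was called by peaks that did not overlap, so its call in both libraries is not a shared site. The summits lay 518 bp beyond the gene at 2.27-fold in air and 896 bp beyond it at 2.81-fold in ethylene replicate 2. Both also called AT4G30940. WRKY33, which drives synthesis of the phytoalexin camalexin and acts on ethylene synthesis genes, had a summit 85 bp beyond its lower-coordinate end in ethylene replicate 2, at 3.42-fold with a score of 110. No peak of air or ethylene replicate 1 overlapped that one, and their nearest summits lay 1252 and 1293 bp beyond the gene, at 2.88-fold and 3.57-fold.

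Among the 36 members bound in no library, 3 had a peak overlapping the window. WRKY22, which acts downstream of immune receptors, had a peak of every library on chromosome 4, from 525143 to 525683 in air, with folds of 4.13, 4.39 and 4.88 and summits 1083, 1132 and 1070 bp beyond the gene. WRKY23, a gene of auxin responses, had a peak of every library on chromosome 2, from 19406554 to 19406986 in ethylene replicate 1. Its folds were 3.26 in air, 6.92 in ethylene replicate 1 and 3.8 in ethylene replicate 2, and its summits lay 328, 306 and 331 bp inside the gene. The fold in ethylene replicate 1 ranked 224 in its list, and only WRKY28 had a higher fold in that library among the summits in windows of family members. WRKY69 had a peak inside the gene in air and in ethylene replicate 2, and WRKY65 had one in air.

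The other unbound members included known regulators of salicylic acid responses. WRKY70, WRKY54, WRKY53 and WRKY46, all of group III, had their nearest summit of any library 3506, 3942, 1975 and 3803 bp from the gene. WRKY29, which acts with WRKY22 in immunity, had its nearest summit 12653 bp away, and WRKY42, a regulator of phosphate transport, 67778 bp away. WRKY75, known from phosphate starvation, had its nearest summit 1530 bp away and was bound in all libraries with a window of 2000 bp. The others were WRKY9, WRKY12, WRKY14, WRKY19, WRKY24, WRKY26, WRKY30, WRKY31, WRKY34, WRKY35, WRKY38, WRKY41, WRKY49, WRKY50, WRKY56, WRKY58, WRKY59, WRKY60, WRKY62, WRKY64, WRKY66, WRKY67, WRKY68, WRKY71 and WRKY74. The median distance from these 36 genes to the nearest summit was 3934 bp.

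**Figure D3:**
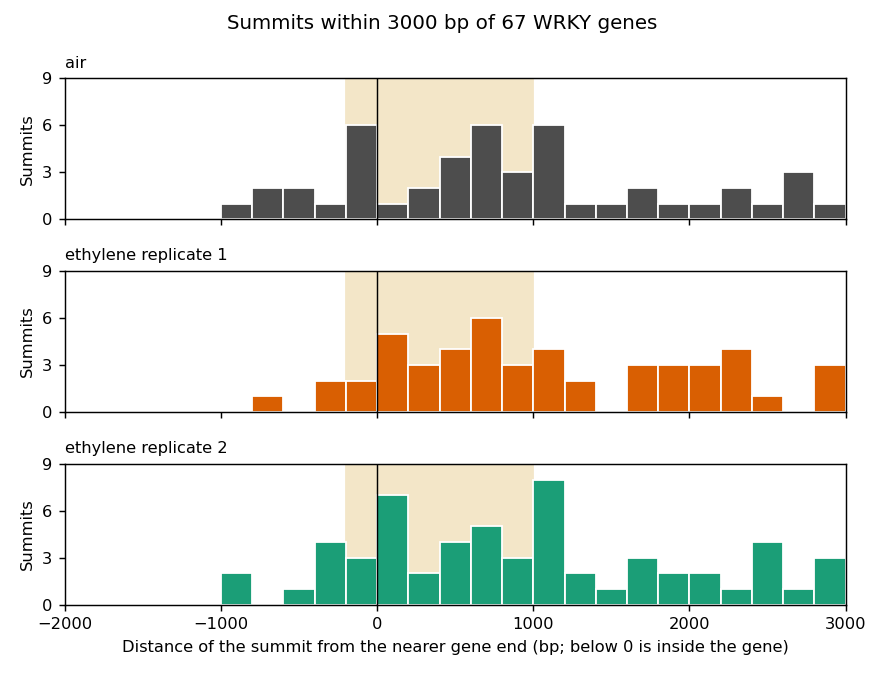
Number of summits (vertical axis) by distance from the nearer end of a WRKY gene (horizontal axis, bp; below 0 is inside the gene), for each library, in bins of 200 bp. The shaded zone is the calling window; 6, 4 and 8 summits of air, ethylene replicate 1 and ethylene replicate 2 lie in the 200 bp just past its outer edge, against 3 in each library in the 200 bp just within it.

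The structural groups differed in how many members had a summit. Of group IId, 6 of 7 were bound in at least 1 library (85.7%, Wilson 95% interval 48.7 to 97.4%), all but WRKY74. Of group I, 9 of 12 were bound (75%, 46.8 to 91.1%), in 6 different combinations of libraries. Group IIb had 5 of 8, group IIc 7 of 17 and group IIa 2 of 3. Group IIe, which holds WRKY22 and WRKY29, had 1 of 7, namely WRKY27 (14.3%, 2.57 to 51.3%). Group III had 1 of 12, namely WRKY55 (8.33%, 1.49 to 35.4%), against 50.2% of all coding genes. Neither ethylene library had a summit in the window of any of these 12 genes, against 36.3 and 36.4% of all coding genes. ABO3, also WRKY63 and of group III, was left out by its symbol and was bound in all libraries. With a window of 2000 bp group III reached 3 of 12, through WRKY53 and WRKY67, and group IIe reached 3 of 7 when the whole gene was counted, through WRKY65 and WRKY69. At a minimum score of 100 group IId held 3 of 7, group I 3 of 12 and group III 0 of 12. The share of all coding genes bound in at least 1 library was not computed for these settings. In single libraries it was 13.1 to 16.2% at the score minimum of 100. With 2000 bp it was 42.4 to 45.8%, and with the whole gene 36.2 to 38.8%. WRKY19, which joins a WRKY domain to a resistance protein, was bound in none. These groups were not tested against each other.

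Gene length differed between the groups. Group III genes had the lowest median, 1570.5 bp, followed by group IIc with 1750 bp, group IIe with 1758 bp, group IIa with 1939 bp, group IId with 2147 bp, group I with 2351 bp and group IIb with 2865.5 bp. Group III, the shortest, had 1 of 12 bound, and group IIb, the longest, had 5 of 8. Group IIc had 7 of 17 bound and group IIe had 1 of 7. Of members under 2000 bp, 21.2% of 33 were bound in at least 1 library, against 42.1% of all coding genes of that length. Of members of 2000 bp or more, 70.6% of 34 were bound, against 57.5% of all coding genes of that length. The part of length in the group counts was not tested, and the boundary of 2000 bp was chosen after the values were seen.

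**Figure D4:**
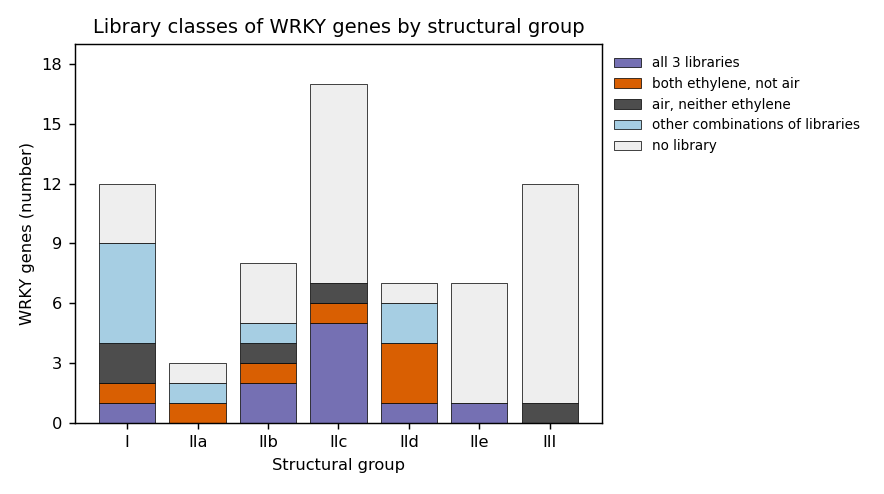
Number of WRKY genes (vertical axis) in each structural group, stacked by the libraries in which they were bound. WRKY19 and the genes with a WRKY number only as a synonym are not shown. Group III holds 1 bound gene of 12 and group IId holds 6 of 7, of which 3 were bound in both ethylene libraries and not air. Over all coding genes, 50.2% were bound in at least 1 library and 5.94% in both ethylene libraries and not air.

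WRKY genes had wider gaps to their neighbours than coding genes in general. The median gap to the neighbouring coding gene was 2314.5 bp, against 1087 bp over all coding genes. Of the summits in WRKY windows, 10 of 22 in air, 8 of 23 in ethylene replicate 1 and 9 of 24 in ethylene replicate 2 also called another coding gene. Over all summits that called a gene, this share was 50.2, 50.9 and 47.1%. The family's summits had median folds of 3.065, 4.08 and 3.48, close to the medians of 3.10, 3.99 and 3.38 over all summits that called a coding gene. Their median scores were 68.7, 101.5 and 86.05, against 82.9, 86.7 and 87.7, so they were lower in air and higher in ethylene replicate 1. A WRKY gene was the nearest coding gene for 15, 16 and 16 of the summits in its window.

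A list of 31 genes that act with WRKY proteins in defence was described beside the family. In air 15 were bound (48.4%, Wilson 95% interval 31.97 to 65.2%), in ethylene replicate 1 12 (38.7%, 23.7 to 56.2%) and in ethylene replicate 2 14 (45.2%, 29.2 to 62.2%), against 33.9, 36.3 and 36.4% of all coding genes. MKK5, a kinase that activates MPK3 and MPK6, had the highest folds of the list, 4.55, 7.22 and 6.31 at ranks 367, 181 and 136 in air, ethylene replicate 1 and ethylene replicate 2. MKK4 and MPK3 were also bound in all libraries, with folds of 2.68, 2.78 and 4.07 and of 2.80, 4.29 and 3.54. The kinase genes thus included 3 of 6 bound in all libraries, while MPK4 was bound in none. Over the whole list 9 of 31 were bound in all libraries (29.03%, 16.1 to 46.6%), against 21.2% of all coding genes, which lay inside the interval.

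Of 13 salicylic acid genes, 6 were bound in all libraries, against 21.2% of all coding genes, and this difference was not tested. TGA3, a transcription factor that partners the salicylic acid receptor NPR1, had folds of 4.29, 5.33 and 4.32. SAG101, a partner of the immune regulator EDS1, had 2.84, 6.29 and 4.20, and SARD1, a regulator of salicylic acid synthesis, had 4.29, 3.97 and 3.08. NPR4, a salicylic acid receptor gene, had 3.00, 3.84 and 3.44, and ICS1, the synthesis enzyme listed as EDS16 in the gene table, had 2.94, 3.68 and 3.49. TGA6 was the sixth, and PAD4, CBP60g, NPR3, TGA2 and TGA5 were bound in none. TGA2 and TGA5 are neighbours on the chromosome.

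The VQ proteins are partners of WRKY factors. None of 4 was bound in all libraries, against 21.2% of all coding genes, but 3 were bound in at least 1, against 50.2%. MKS1 was bound in air and ethylene replicate 2, at 2.82-fold and 3.66-fold. IKU1 was bound in ethylene replicate 2 alone, at 5.06-fold and rank 437, and SIB1 in none. SIB2 was bound in both ethylene libraries and not air (a class of 5.94% of all coding genes), at 3.67-fold and 3.78-fold. Of 8 output genes of defence and senescence, no ethylene library bound any, against 36.3 and 36.4% of all coding genes. These differences were not tested. The glucanase gene PR2, listed as BGL2, and the senescence gene SAG12 were bound in air alone, at 3.52-fold and 2.59-fold. That class held 4.63% of all coding genes. PAD3, CYP71A13, PR1, PR5, FRK1 and SAG13 were bound in none.

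The 5 genes with a WRKY number as a synonym were bound as follows. ZAP1, also WRKY1, was bound in all libraries with folds of 2.97 in air, 4.46 in ethylene replicate 1 and 4.58 in ethylene replicate 2, and ABO3, also WRKY63 and of group III, with folds of 2.85, 3.85 and 2.99. TTG2, also WRKY44, a gene of trichome and seed coat development, was bound in air alone at 2.97-fold, from a summit that also called ADK. The resistance genes TTR1 and RRS1 were bound in none. With these genes the family counts were 23, 24 and 23 of 72.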

How the data were processed

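ChIP-seq peak and summit lists of 3 libraries were used. The submitters' processing notes name BWA and the TAIR10 build. Peaks were called with MACS 1.4.2 for each library alone against the input of its treatment, per the file headers, at a p cutoff of 1e-05 with 1 tag kept per position. The tags column holds raw deposited counts, and the deposited summit height is a signal, the tag pileup. The deposited score is 10 times the negative log10 of the p-value, the fold enrichment is a ratio to the local background and the FDR is in percent, all the authors' values. Whether the ethylene replicates are separate batches of seedlings is not given in the sources used here, so they may be technical.

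Gene positions came from a table of TAIR10.1 with 27444 nuclear coding genes, used for names and distances and not printed. Summits moved by 500 to 2000 bp fell inside coding genes more often than unmoved ones in all libraries, so table and lists matched. Calls were made with Python 3.11.15, numpy 2.4.6, pandas 2.3.3 and scipy 1.17.1, figures with matplotlib 3.10.9, and the calling step was tested on simulated data. Intervals cover counting error only, and tags without molecular identifiers are not independent molecules. Values are given for all members bound in both ethylene libraries and not air, or in air and neither, and for the 10 bound in all with the smallest sum of fold ranks. Others described are named outside that rule, after their values were seen. The members and lists were chosen with earlier results of these data known. No test was made, and sequence was not used here.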

Additional observations from a re-analysis of the deposited data

How the results depend on the processing

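Results were recomputed with 7 other ways of calling, without each ethylene replicate in turn, and, chosen after seeing the data, with synonyms in the family and with no overlapping peak in the missing library. A minimum score of 100 left 6, 12 and 10 members bound in air, ethylene replicate 1 and ethylene replicate 2, with 5 in all libraries, 3 in both ethylene libraries and not air, and 1 in air and neither ethylene library, against 13.1, 15.7, 16.2, 6.52, 3.41 and 3.06% of all coding genes, and 7 of the 22 named members kept their class. A window of 500 bp gave 10, 12 and 12 members, with 4, 4 and 2 in these classes, against 27.9, 30.1, 30.04, 16.3, 5.16 and 4.43% of all coding genes, and 10 named members kept theirs. A window of 2000 bp gave 19 in all libraries and 3 in the air class, against 28.6 and 4.71% of all coding genes. Any overlap of a peak gave 20 and 3, against 24.9 and 5.05%. With no overlapping peak allowed in the missing library the air class held 2, against 4.09%. Lists of equal length, the whole gene, the summit list, whose positions equal those of the peak tables, and the synonyms kept the family's library and class counts within 1.5 times. Without ethylene replicate 1, the classes of air and ethylene, ethylene and not air, and air and not ethylene held 13, 8 and 7 members. The shares of all coding genes were 25.2, 11.2 and 8.73%. Without ethylene replicate 2 these classes held 12, 10 and 8 members, against 25.3, 11.02 and 8.62% of all coding genes. Of 112 further values for families, groups and the defence list, 85 stayed within 1.5 times and 27 moved further. Some settings had fewer peaks or a narrower window and others a wider one, and the cause of these changes was not tested. A window at gene starts, also planned, was not run, as the table has no strand. No paired analysis was possible because air has 1 library, so the treatments share fewer than 2 replicate numbers, and no result comes from a test. A gene without a summit may lie below the peak cutoff at this depth, above all in ethylene replicate 1.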
